A study of Mus musculus with 39 samples.

Results

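Microglia from adult male mice that had or had not been exposed to maternal immune activation (MIA) were compared after an injection of lipopolysaccharide (LPS), in animals without PLX. The 10 libraries were chosen by their labels: 6 of MIA_CON_LPS (prenatal MIA, no PLX, LPS) and 4 of CON_CON_LPS (prenatal control, no PLX, LPS), out of 39 libraries in the whole series. CON_CON_LPS replicate 3 was left out because its title marks it for exclusion. Cells were sorted from the striatum of mice aged 8 to 10 weeks as living cells with CD11b and P2RY12 on the surface and little CD45, 18 hours after intraperitoneal LPS at 4500 endotoxin units per gram of body weight. All 10 libraries share the LPS, the sort and the absence of PLX, which the labels do not define. How MIA was induced is not given in the sources used here. Further values come from the LPS groups with PLX (MIA_PLX_LPS and CON_PLX_LPS) and the saline groups without it (MIA_CON_SAL and CON_CON_SAL). Nothing in the labels ties each replicate to an animal of its own; a p-value here measures the spread between samples, and that spread may be technical.

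Maternal immune activation is an inflammatory challenge during pregnancy, and it is used in rodents to ask how early immune stress shapes later brain cells, microglia among them. Microglia are the resident macrophages of the brain. LPS, a glycolipid of the bacterial cell envelope, is sensed by TLR4 with its partner MD-2 (encoded by Ly96). One branch of that signal drives NF-kB and cytokine genes such as Tnf and Il1b. Another branch drives type I interferon and the interferon-stimulated genes, and resting-state microglial genes such as P2ry12 and Tmem119 commonly fall at the same time.

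Markers of the labelled cell type were detected in every library, at levels that differed by gene. In the 10 libraries Csf1r, the receptor for the survival factor CSF1, ran from 2610 to 4620 CPM (a gene's count as a share of all counts in its library, scaled alike in every library), C1qa from 807 to 3030, and Sall1, a transcription factor of microglia, from 109 to 714. Other markers reached lower values: 75.5 CPM for Tmem119, 101 for Cx3cr1, 176 for P2ry12 and 186 for Siglech. Each of these values lay below every saline library without PLX. Totals were 2942002 ± 892515 counts in MIA_CON_LPS (SD, n = 6) and 3750414 ± 791713 in CON_CON_LPS (SD, n = 4). The biological coefficient of variation among replicates was 0.425 in MIA_CON_LPS and 0.438 in CON_CON_LPS, against 0.161 in MIA_CON_SAL and 0.15 in CON_CON_SAL, so the LPS libraries scattered far more than the saline ones.

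Among the 10, 2 libraries stood apart. MIA_CON_LPS replicate 6 nearly matched MIA_PLX_SAL replicate 1, whose title also marks it for exclusion. Their chi-square per degree of freedom was 1.53 over 11605 genes, the lowest of 741 pairs, while the next pair of the series gave 2.42 and the next library to replicate 6 gave 8.94. The comparisons over all genes, the index and the gene lists are therefore given with replicate 6 and without it. CON_CON_LPS replicate 4 had 6.14% of its counts in mitochondrial ribosomal RNA, with the other 3 CON_CON_LPS libraries at 12% to 16.6%. The counts over all genes, the index difference and most gene lists are also given with both libraries left out. Most single genes are not, including some where replicate 4 was the lowest control.

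The size of the LPS response was read from an index, the mean log2 CPM of 825 genes that were higher after LPS in both PLX arms minus that of 697 genes that were lower there, so that no library without PLX chose the genes. The 6 MIA_CON_LPS libraries had indices of 2.57, 1.68, 1.46, 2.21, 1.84 and -0.11 (replicates 1 to 6), and the CON_CON_LPS libraries had 2.44, 1.37, 1.66 and 1.91 (replicates 1, 2, 4 and 5). Replicate 6 lay far below the other 9, between the LPS and the saline libraries, and those other 9 overlapped between MIA and control. Saline libraries without PLX lay between -1.87 and -1.76 in MIA_CON_SAL and between -1.96 and -1.78 in CON_CON_SAL. The index averaged 1.61 ± 0.929 in MIA_CON_LPS (SD, n = 6) and 1.85 ± 0.452 in CON_CON_LPS (SD, n = 4). The difference of -0.24 had a two-sided exact permutation p of 0.733 (210 relabelings, smallest possible p 0.00476) and a 95% interval of -1.48 to 0.83. Without replicate 6 the MIA_CON_LPS mean was 1.95 ± 0.439 (SD, n = 5), and the difference of 0.11 had an exact p of 0.714 and an interval of -0.6 to 0.83. One library therefore set the sign of the difference, and neither value exceeded the spread between replicates.

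**Figure D1:**
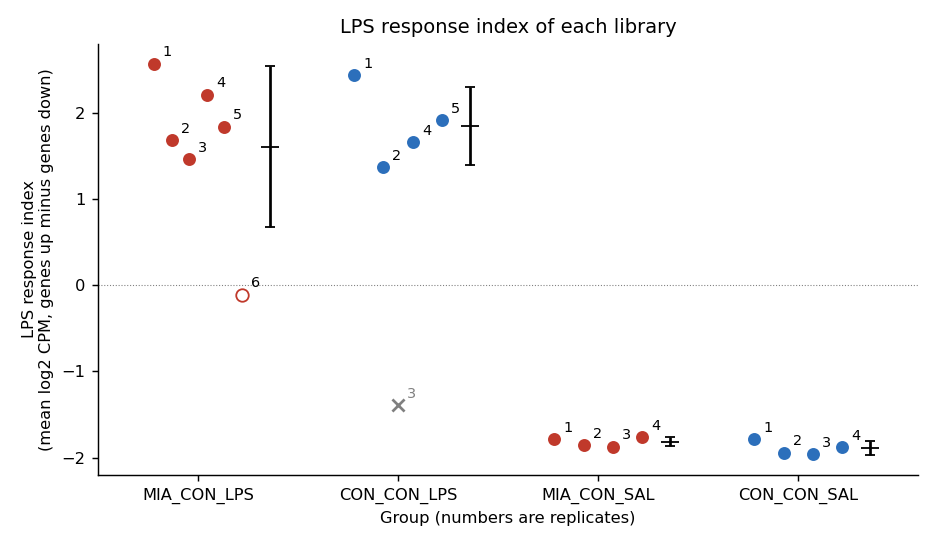
LPS response index (mean log2 CPM of genes up minus genes down after LPS) of each library without PLX, by group; numbers are replicates, bars are the mean ± SD of the libraries used, the open circle is MIA_CON_LPS replicate 6 and the grey cross is the CON_CON_LPS library marked for exclusion. Replicate 6 sits at -0.11, below the other 5 MIA_CON_LPS libraries at 1.46 to 2.57 and the 4 CON_CON_LPS libraries at 1.37 to 2.44.

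The genes behind the index showed the same dependence on 1 library. With all 10 libraries the 825 LPS-raised genes had a median log2 difference (MIA_CON_LPS minus CON_CON_LPS) of -0.11 and the 697 LPS-lowered genes one of 0.31. Without replicate 6 these medians were 0 and -0.04. No gene of either set passed the edgeR test with 10 libraries, without replicate 6 or with both libraries left out. Of the LPS-raised genes, 364 of 825 had a 95% interval inside a 2-fold difference without replicate 6 and 386 of 825 with it; the intervals of the others reached past a 2-fold difference.

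Across all 13420 genes tested by the edgeR quasi-likelihood test with Benjamini-Hochberg adjustment, 0 (0%) differed between MIA_CON_LPS and CON_CON_LPS at an adjusted p under 0.05. The smallest adjusted p was 0.246. At an unadjusted p under 0.05, 657 genes (4.9%) were higher and 595 (4.43%) lower in MIA_CON_LPS. The fit shared 1 estimate of spread per gene across 8 groups, and the saline groups scattered less than the LPS groups. Its p-values and intervals may therefore understate the spread after LPS. A fit of the 2 groups alone had 201 genes higher and 176 lower at that level, of 11344 tested. Voom with quality weights (limma) called 0 genes, with 539 at an unadjusted p under 0.05, and DESeq2 called 3 higher and 4 lower (Cep128, Gm26802, Gm37309, Gm4524, Has3, Iqcn and Leo1). Without replicate 6, 1 of 13356 genes (0.00749%) was called, Gm38091, which was lower in MIA_CON_LPS, and 669 (5.01%) were higher and 727 (5.44%) lower at an unadjusted p under 0.05. With CON_CON_LPS replicate 4 also left out, 0 of 13338 (0%) were called, and 485 (3.64%) and 612 (4.59%) were higher and lower at that level. Of the genes at an unadjusted p under 0.05, the share that was higher in MIA_CON_LPS was 52.5% by edgeR with TMM scaling and 32.7% by voom. The median log2 difference of all genes was -0.009 with 10 libraries and its median standard error was 0.31. For 7551 genes (56.3%) the 95% interval lay inside a 2-fold difference.

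**Figure D2:**
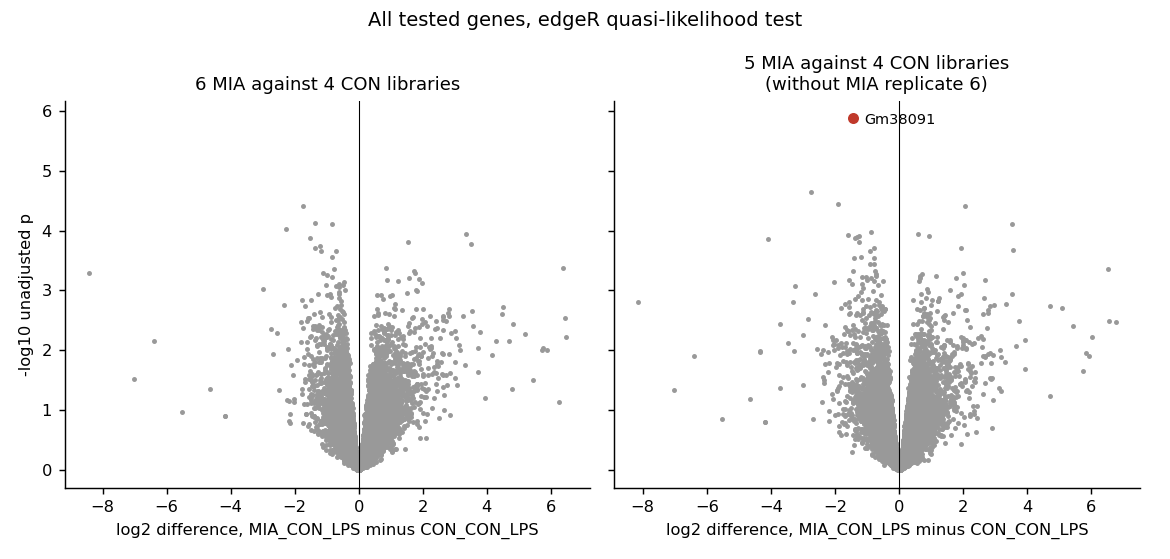
Every tested gene by its log2 difference (MIA_CON_LPS minus CON_CON_LPS, horizontal) and -log10 unadjusted p (vertical), with 10 libraries on the left and without MIA_CON_LPS replicate 6 on the right. No gene on the left passed an adjusted p of 0.05, and Gm38091 (red) was the 1 gene that passed on the right.

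The cytokine genes that report NF-kB signalling spread widely within each group, and none of the 4 examined separated MIA from control. Tnf, a cytokine that spreads inflammation, ran from 251 to 1100 CPM in MIA_CON_LPS with a median of 485, and stood at 546, 1350, 33.8 and 1520 CPM in CON_CON_LPS replicates 1, 2, 4 and 5. The groups overlapped, and control replicate 4 lay below every saline library without PLX (55.8 to 96.2 CPM in MIA_CON_SAL, 40.6 to 97 CPM in CON_CON_SAL). The Tnf log2 difference was -0.50 ± 0.66 (SE), with a 95% interval of -1.84 to 0.84 and an edgeR adjusted p of 0.863, and it was -0.34 without replicate 6.

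Il1b, the precursor of interleukin 1 beta, ran from 48.9 to 1200 CPM in MIA_CON_LPS (median 119) and stood at 146, 1150, 9.47 and 2150 CPM in CON_CON_LPS. Its log2 difference was -1.03 with an interval of -3.11 to 1.04, and -0.85 without replicate 6. Control replicates 1, 2 and 5 each lay above at least 4 of the 6 MIA libraries, and control replicate 4 was the lowest of all 10. Ccl2, which recruits monocytes, ran from 4.81 to 319 CPM in MIA_CON_LPS (median 26.9) and stood at 13.7, 194, 26.4 and 125 CPM in CON_CON_LPS. Cxcl10, an interferon-induced chemokine, ran from 27.1 to 449 CPM in MIA_CON_LPS (median 105) and stood at 193, 224, 15.9 and 81.8 CPM in CON_CON_LPS. The log2 differences of Ccl2 (0.08, interval -1.38 to 1.54) and Cxcl10 (0.26, interval -1.13 to 1.64) allowed changes of over 2-fold in either direction. Both changed sign with 1 library left out: Ccl2 ranged from -0.83 (without MIA_CON_LPS replicate 3) to 0.79 (without CON_CON_LPS replicate 2) and Cxcl10 from -0.43 (without MIA_CON_LPS replicate 1) to 0.68 (without CON_CON_LPS replicate 2). Cxcl10 overlaps Art3 on the other strand, and the library kit kept no strand information, so reads of overlapping genes cannot be told apart.

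**Figure D3:**
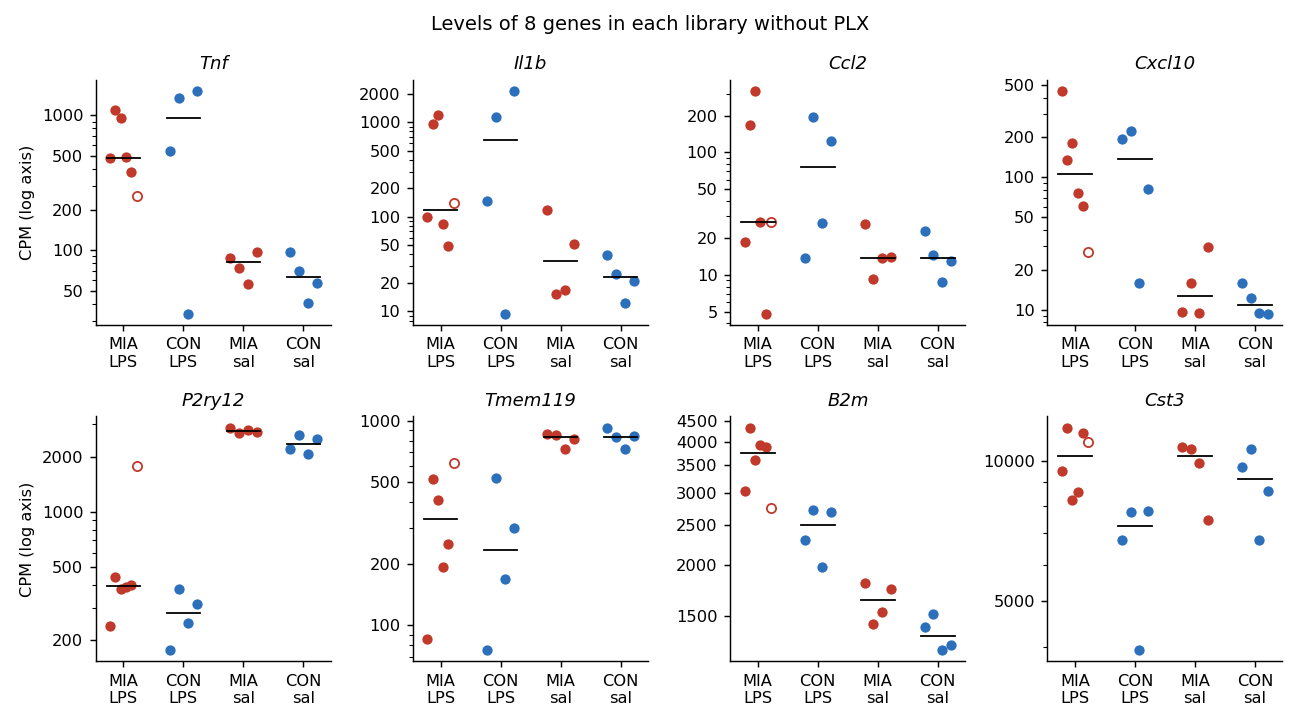
CPM on a log axis in each library without PLX for cytokine genes (Tnf, Il1b, Ccl2, Cxcl10), microglial genes (P2ry12, Tmem119), B2m and Cst3; each point is a library, the line is the group median and the open circle is MIA_CON_LPS replicate 6. MIA and control LPS libraries overlap for the first 6 genes. They do not for B2m (2760 to 4330 against 1980 to 2730 CPM) and Cst3 (8240 to 11800 against 3930 to 7830 CPM). B2m and Cst3 were named for a small p in these same libraries.

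The wider NF-kB list, 24 tested targets and inflammatory mediators, had a median log2 difference of -0.44 with 10 libraries, -0.34 without replicate 6 and -0.63 with both libraries left out, beside medians over all genes of -0.009, -0.02 and -0.019. No member passed the adjusted test, and 20 of 24 were below 0 with 10 libraries. Members lower at an unadjusted p under 0.05 numbered 1, 0 and 4, beside 4.43%, 5.44% and 4.59% of all genes. Tnfaip2, a cytokine-induced gene, ran from 9.17 to 120 CPM in MIA_CON_LPS (median 35.2) and stood at 80.1, 107, 26.6 and 319 CPM in CON_CON_LPS, a log2 difference of -1.47 with an unadjusted edgeR p of 0.0263 and an adjusted p of 0.468. Icam1, an adhesion molecule for leukocytes, ran from 72.5 to 226 CPM in MIA_CON_LPS (median 155) and stood at 191, 305, 56 and 409 CPM in CON_CON_LPS (log2 difference -0.70). For both genes control replicate 5 was the highest library and control replicate 4 the lowest of its own group. The mean log2 CPM of the list, its score, was 5.21 to 6.85 in MIA_CON_LPS and 6.89, 6.8, 4.22 and 7.1 in CON_CON_LPS. The full control range, 4.22 to 7.1, held all 6 MIA libraries. Control replicates 1, 2 and 5 spanned 6.8 to 7.1, and 1 MIA library, replicate 1 at 6.85, fell in that narrower range.

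The 14 chemokine genes had a median of 0.08 with 10 libraries, 0.27 without replicate 6 and -0.06 with both left out. Ccl6, a chemokine of myeloid cells, ran from 6.99 to 29.2 CPM in MIA_CON_LPS (median 11.4) and stood at 6.43, 12.7, 7.42 and 8.56 CPM in CON_CON_LPS, with an unadjusted p of 0.027 and an adjusted p of 0.471 by edgeR. MIA replicate 6 stood at 21.8 CPM. Chemokine genes higher at an unadjusted p under 0.05 numbered 1 with 10 libraries, 0 without replicate 6 and 0 with both left out. The shares of all genes were 4.9%, 5.01% and 3.64%. Cxcl13, a B cell attractant, was low and uneven, from 0 to 33.7 CPM in MIA_CON_LPS (median 3.64) and 0, 6.09, 1.79 and 0.951 CPM in CON_CON_LPS. A single MIA library, replicate 2, gave the Cxcl13 maximum.

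The stretches upstream of Tnf, Cxcl10 and B2m are shown because these genes stand for the NF-kB branch, the interferon branch and antigen presentation in what follows. Each is the 250 bases before the RefSeq start (GRCm38.p6), given 5′ to 3′ on the gene's strand, with capitals marking matches on either strand to an NF-kB pattern (GGG, any 5 bases, CC) or to an interferon response pattern (GAAA, any 2 bases, GAAA).
Tnf, chr17:35202008-35202257, minus strand: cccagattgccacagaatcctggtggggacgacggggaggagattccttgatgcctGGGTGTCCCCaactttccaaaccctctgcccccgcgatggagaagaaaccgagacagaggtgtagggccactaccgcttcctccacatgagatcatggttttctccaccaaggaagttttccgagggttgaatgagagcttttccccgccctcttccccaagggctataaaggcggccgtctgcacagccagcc
Cxcl10, chr5:92348890-92349139, minus strand: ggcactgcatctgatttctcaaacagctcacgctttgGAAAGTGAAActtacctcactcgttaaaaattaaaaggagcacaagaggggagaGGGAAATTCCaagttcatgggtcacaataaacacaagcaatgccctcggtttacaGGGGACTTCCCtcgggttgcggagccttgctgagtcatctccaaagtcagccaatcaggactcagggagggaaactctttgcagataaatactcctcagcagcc
B2m, chr2:122147437-122147686, plus strand: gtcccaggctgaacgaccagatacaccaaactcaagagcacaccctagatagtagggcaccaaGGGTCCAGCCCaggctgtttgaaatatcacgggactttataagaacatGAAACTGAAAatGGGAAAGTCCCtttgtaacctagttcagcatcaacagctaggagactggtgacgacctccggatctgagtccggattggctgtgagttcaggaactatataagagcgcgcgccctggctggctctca
Tnf held 1 match to the NF-kB pattern and 0 to the interferon pattern in this window, Cxcl10 held 3 and 1, and B2m held 4 and 1, where matches may overlap by all but 1 base. The NF-kB pattern is loose: it was found in 61% of the 9212 tested genes with a RefSeq promoter and in 16 of 20 promoters of the NF-kB list. The interferon pattern was found in 2.85% of tested genes and in 14 of 27 promoters of the interferon-stimulated list. A match is a description of these letters and not a measured binding site.

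Genes induced by interferon, many of which act against viruses, had a median log2 difference of 0.15 over 36 tested members with 10 libraries, 0.28 without replicate 6 and 0.61 with both libraries left out. No member passed the adjusted test in these fits. Members higher at an unadjusted p under 0.05 numbered 1, 2 and 8, beside 4.9%, 5.01% and 3.64% of all genes. Scores ran from 4.75 to 5.82 in MIA_CON_LPS and were 4.8, 5.68, 5.93 and 3.73 in CON_CON_LPS replicates 1, 2, 4 and 5. Control replicate 4, the lowest of its group for NF-kB targets, was thus the highest of all 10 for interferon-stimulated genes, and control replicate 5 was the highest for the first and the lowest for the second. Ifitm3, which blocks virus entry, ran from 64.6 to 473 CPM in MIA_CON_LPS (median 169) and stood at 28.4, 225, 69.9 and 52 CPM in CON_CON_LPS, a log2 difference of 1.10 ± 0.49 (SE) with an edgeR adjusted p of 0.489. Parp14, an interferon-induced ADP-ribosyltransferase, ran from 219 to 495 CPM in MIA_CON_LPS (median 302) and stood at 409, 467, 637 and 231 CPM in CON_CON_LPS (log2 difference -0.40).

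No gene of antigen presentation passed the adjusted test. B2m, the light chain of MHC class I, stood at 3030, 4330, 3610, 3930, 3890 and 2760 CPM in MIA_CON_LPS and at 2300, 2730, 1980 and 2700 CPM in CON_CON_LPS. Every MIA library lay above every control library and replicate 6 was the MIA library nearest to them. The B2m log2 difference was 0.56 ± 0.17 (SE, interval 0.22 to 0.91), with an unadjusted p of 0.00201 and an adjusted p of 0.386 by edgeR, so it did not pass, and without replicate 6 it was 0.63 (adjusted p 0.218). With both libraries left out the B2m log2 difference was 0.53 (adjusted p 0.417 by edgeR). B2m overlaps Patl2 on the other strand. Tapbp, which holds class I molecules at the peptide transporter, ran from 126 to 194 CPM in MIA_CON_LPS (median 167) and stood at 130, 151, 114 and 112 CPM in CON_CON_LPS (log2 difference 0.35, adjusted p 0.44). Over the 15 tested class I genes the median was 0.26 with 10 libraries, 0.37 without replicate 6 and 0.31 with both left out, with 10, 13 and 13 members above 0. The 6 tested class II genes had medians of 0.63, 0.69 and 0.46 with all 6 above 0 in each case. In MIA_CON_SAL minus CON_CON_SAL all 6 were also above 0 (median 0.33). After LPS with PLX 2 were above 0 and 4 below (median -0.09). H2-Aa, a class II alpha chain, ran from 3.93 to 12.2 CPM in MIA_CON_LPS (median 6.94) and stood at 1.34, 4.45, 1.28 and 0.634 CPM in CON_CON_LPS, with an adjusted p of 0.439. H2-Eb1, a class II beta chain, ran from 0.437 to 3.09 CPM in MIA_CON_LPS (median 1.59) and stood at 1.07, 0.703, 0.256 and 0.634 CPM in CON_CON_LPS. Class II genes are also carried by border macrophages and dendritic cells, and the level here rested on 120 counts of H2-Aa in the 6 MIA libraries and 31 in the 4 control libraries.

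The median of the resting-state microglial genes depended on replicate 6. P2ry12, the purinergic receptor used in the sort, stood at 240, 444, 378, 389, 398 and 1780 CPM in MIA_CON_LPS replicates 1 to 6, and at 176, 380, 247 and 313 CPM in CON_CON_LPS. Replicate 6 lay above every other LPS library without PLX and below the saline range (2680 to 2880 CPM in MIA_CON_SAL, 2070 to 2640 CPM in CON_CON_SAL), while the other 5 overlapped control. The P2ry12 log2 difference was 1.12 (interval 0.44 to 1.80, adjusted p 0.386) with replicate 6 and 0.41 (unadjusted p 0.0484, adjusted p 0.474 by edgeR) without it. Siglech, a sialic acid receptor of microglia, stood at 764 CPM in replicate 6, at 239 to 343 CPM in the other MIA_CON_LPS libraries, and at 290, 283, 216 and 186 CPM in CON_CON_LPS. The median over 20 tested resting-state genes was 0.36 with 10 libraries, 0.10 without replicate 6 and -0.01 with both left out.

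Other microglial surface genes spread widely within both groups. Tmem119 ran from 85.3 to 621 CPM in MIA_CON_LPS (median 330) and stood at 75.5, 523, 169 and 300 CPM in CON_CON_LPS. Cx3cr1, the fractalkine receptor, stood at 118, 1180, 1360, 146, 200 and 1280 CPM in MIA_CON_LPS and at 101, 1460, 288 and 973 CPM in CON_CON_LPS, which put the libraries of both groups either at 101 to 288 CPM or at 973 to 1460 CPM. Replicate 1 was the lowest library of its group for both Tmem119 and Cx3cr1, in MIA_CON_LPS as in CON_CON_LPS. Csf1r ran from 3290 to 4620 CPM in MIA_CON_LPS (median 3710) and stood at 2880, 4260, 2610 and 3850 CPM in CON_CON_LPS, a log2 difference of 0.16 with an interval of -0.14 to 0.47. For the sort markers, Itgam, which encodes CD11b, had a log2 difference of -0.03 (interval -0.51 to 0.45) and Ptprc, which encodes CD45, one of -0.08 (interval -0.44 to 0.29), so both lay within 2-fold.

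None of the genes for sensing LPS passed the adjusted test. Tlr4 ran from 36.7 to 193 CPM in MIA_CON_LPS (median 86.5) and stood at 38.6, 137, 155 and 108 CPM in CON_CON_LPS, a log2 difference of -0.10 with an interval of -0.84 to 0.63. Over 20 tested genes of LPS sensing and its brakes the median was -0.07 with 10 libraries, -0.06 without replicate 6 and -0.20 with both left out. Members higher at an unadjusted p under 0.05 numbered 2, 1 and 1, beside 4.9%, 5.01% and 3.64% of all genes. Ly96 ran from 2.37 to 19.9 CPM in MIA_CON_LPS (median 9.51) and stood at 2.95, 8.91, 4.86 and 5.71 CPM in CON_CON_LPS (unadjusted p 0.0423, adjusted p 0.518 by edgeR, and 0.133 and 0.597 without replicate 6). Socs1, which dampens cytokine receptor signalling, ran from 0.281 to 4.37 CPM in MIA_CON_LPS (median 2.51) and stood at 0.536, 0, 1.28 and 0 CPM in CON_CON_LPS, on 33 and 7 counts in all (adjusted p 0.451).

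**Figure D4:**
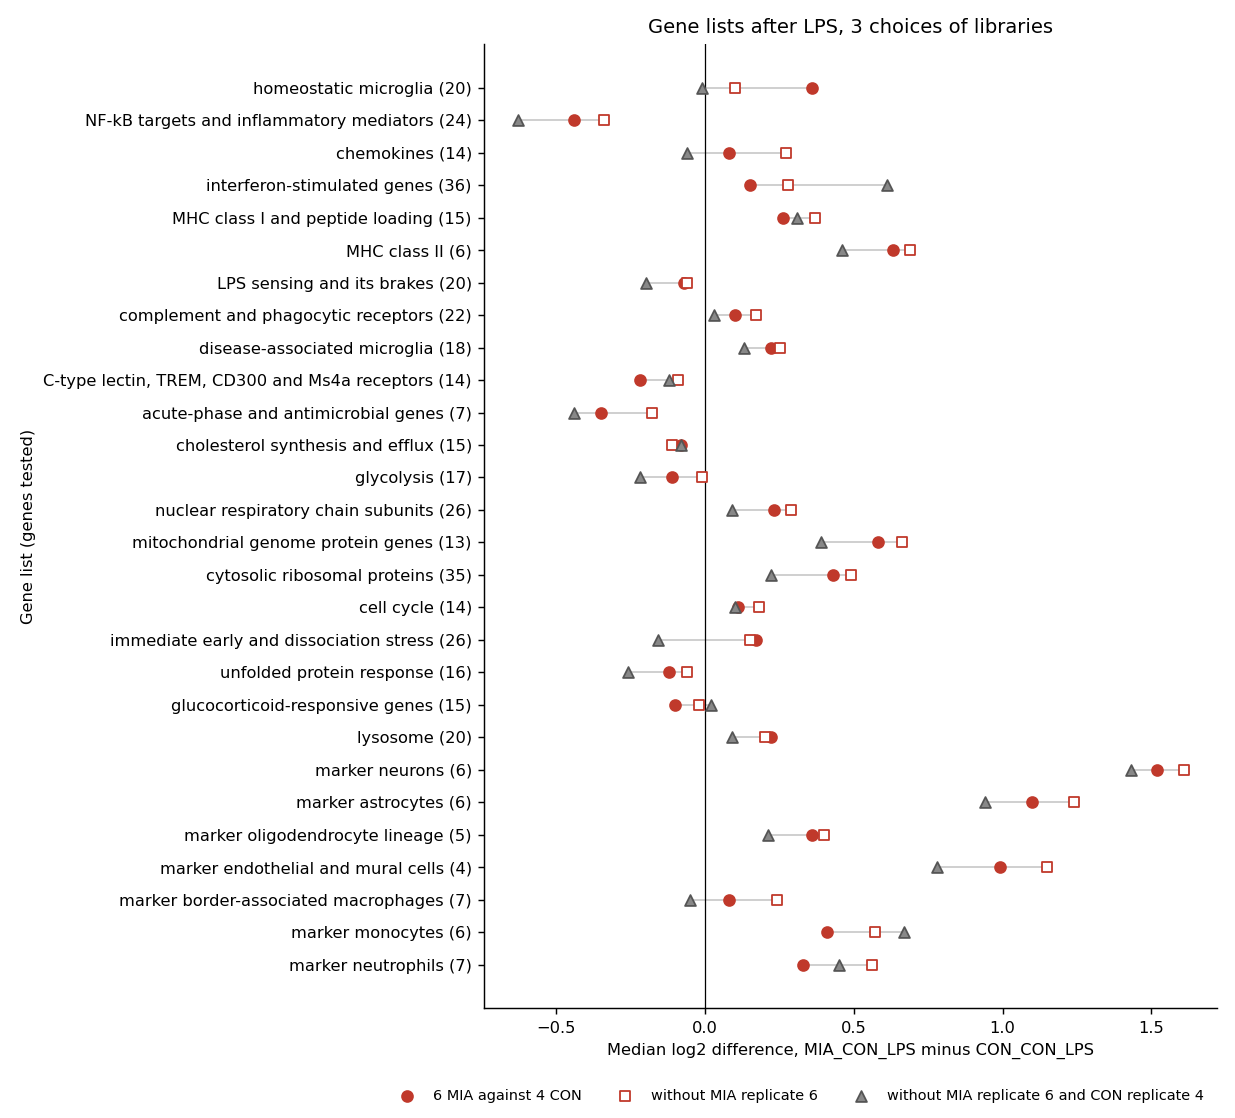
Median log2 difference (MIA_CON_LPS minus CON_CON_LPS) of the tested genes of each list, with the number tested in brackets; circles use 10 libraries, open squares leave out MIA_CON_LPS replicate 6 and triangles also leave out CON_CON_LPS replicate 4. Resting-state genes move from 0.36 to -0.01 across the 3 choices, interferon-stimulated genes from 0.15 to 0.61, and the neuronal, astrocytic and endothelial marker lists are at 0.78 or more under each choice.

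No ribosomal or mitochondrial gene of these lists passed the adjusted test with 10 libraries, without replicate 6 or with both libraries left out, and the medians were above 0 in all 3 cases. Of 35 tested cytosolic ribosomal protein genes, which build the ribosome, 34 were above 0, with a median of 0.43 and 14 at an unadjusted p under 0.05, beside 4.9% of all genes higher at that level. Without replicate 6 the median was 0.49 with 16 such genes, and with both libraries left out it was 0.22 with 3, beside 5.01% and 3.64% of all genes. Rps29 ran from 260 to 598 CPM in MIA_CON_LPS (median 322) and stood at 145, 228, 75.7 and 365 CPM in CON_CON_LPS, an adjusted p of 0.402 by edgeR. Rps27 ran from 182 to 439 CPM in MIA_CON_LPS (median 220) and stood at 132, 171, 58.9 and 216 CPM in CON_CON_LPS. Control replicate 4 was the lowest of the 10 for both genes and control replicate 5 lay among the MIA values.

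All 13 protein genes of the mitochondrial genome were above 0, with a median of 0.58 and 6 higher at an unadjusted p under 0.05, beside 4.9% of all genes. The median and that count were 0.66 and 7 without replicate 6 (5.01% of all genes), and 0.39 and 2 with both left out (3.64%). In MIA_CON_SAL minus CON_CON_SAL 12 of these 13 genes were also above 0 (median 0.41). After LPS with PLX 6 were above 0 and 7 below (median -0.02). mt-Atp6, a subunit of ATP synthase, ran from 681 to 1030 CPM in MIA_CON_LPS (median 820) and stood at 282, 507, 132 and 726 CPM in CON_CON_LPS (log2 difference 1.01, adjusted p 0.386). mt-Co2, a subunit of cytochrome c oxidase, ran from 876 to 1540 CPM in MIA_CON_LPS (median 1230) and stood at 528, 666, 235 and 1120 CPM in CON_CON_LPS (log2 difference 0.92, adjusted p 0.386). Of 26 nuclear-encoded respiratory chain genes 22 were above 0, with a median of 0.23 that was 0.29 without replicate 6 and 0.09 with both libraries left out. Ndufa2, a complex I subunit, ran from 7.33 to 30.2 CPM in MIA_CON_LPS (median 13.1) and stood at 5.89, 9.14, 4.86 and 11.7 CPM in CON_CON_LPS, and Uqcrb, a complex III subunit, had a log2 difference of 0.96 (adjusted p 0.464). Mitochondrial ribosomal RNA took 16.9% ± 2.12 of counts in MIA_CON_LPS (SD, n = 6) and 12.6% ± 4.75 in CON_CON_LPS (SD, n = 4). Its part in these group values was not tested.

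No marker of another brain cell type passed the adjusted test, and the medians of these lists were also above 0. Summed over the list, 12 neuronal markers reached 11.8 to 88.7 CPM in MIA_CON_LPS and 9.72 to 29.3 CPM in CON_CON_LPS, 8 astrocyte markers reached 198 to 362 and 88.5 to 203 CPM, and 9 oligodendrocyte markers 67.3 to 105 and 37.4 to 124 CPM. The 10 markers of endothelial and mural cells reached 23.1 to 31.5 CPM in MIA_CON_LPS and 9.21 to 17.1 CPM in CON_CON_LPS. This was the 1 marker list of these whose summed values did not overlap. Its score over the 4 tested markers did overlap, at 1.54 to 2.53 in MIA_CON_LPS and 0.74 to 1.79 in CON_CON_LPS. At saline the same endothelial sum was 22.6 to 51.5 CPM in MIA_CON_SAL and 25 to 37.6 CPM in CON_CON_SAL, which placed CON_CON_LPS below the other 3 groups without PLX. After LPS with PLX it was 7.75 to 34.8 CPM in MIA_PLX_LPS and 17.4 to 25.4 CPM in CON_PLX_LPS. Values as low as those of CON_CON_LPS thus also occurred in MIA_PLX_LPS, and the list median there was -0.37 (MIA minus control). In bulk samples, fewer cells of a type and less RNA per cell cannot be told apart. Of 6 tested neuronal markers all were above 0 (median 1.52, 1.61 without replicate 6 and 1.43 with both libraries left out) and 4 were higher at an unadjusted p under 0.05 in each case, beside 4.9%, 5.01% and 3.64% of all genes. Syt1, a synaptic vesicle protein, stood at 3.55, 0, 2.45, 5.02, 8.3 and 2.06 CPM in MIA_CON_LPS and at 1.34, 0.703, 0 and 0 CPM in CON_CON_LPS, on 51 and 8 counts in all, and Gad2, which makes GABA, had a log2 difference of 1.53 (adjusted p 0.439). Slc1a2, the glutamate transporter of astrocytes, ran from 67.6 to 140 CPM in MIA_CON_LPS (median 96.7) and stood at 72, 77.8, 6.65 and 14 CPM in CON_CON_LPS, an adjusted p of 0.501 by edgeR.

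Markers of blood-derived and border cells overlapped between the groups. Sums ran from 24.9 to 375 CPM in MIA_CON_LPS and 30.3 to 273 CPM in CON_CON_LPS for border-associated macrophages, 29.6 to 166 and 25.4 to 153 CPM for monocytes, and 81.7 to 534 and 53.6 to 375 CPM for neutrophils. Replicate 2 was the highest library of its group for border macrophage markers in both MIA_CON_LPS and CON_CON_LPS. The sums for lymphocytes stayed at 2.18 CPM or less in MIA_CON_LPS and 2.68 CPM or less in CON_CON_LPS, with 4 of 10 markers at 0 in all 10 libraries (Cd3g, Klrb1c, Nkg7 and Trbc2). Erythroid sums stayed at 8.23 CPM or less in MIA_CON_LPS and 3.05 CPM or less in CON_CON_LPS. Cd163, a scavenger receptor of border macrophages, reached 22.5 CPM in MIA replicate 2 and 7.27 CPM in control replicate 2 and was at 0 in replicate 1 of both groups and in control replicate 4. S100a8, a neutrophil alarmin, ran from 2.37 to 44.4 CPM in MIA_CON_LPS (median 5.32). It stood at 1.87, 6.09, 1.02 and 12.4 CPM in CON_CON_LPS. At saline S100a8 reached at most 3.13 CPM in MIA_CON_SAL and 0.329 CPM in CON_CON_SAL. The neutrophil sum was still 341 to 376 CPM in MIA_CON_SAL and 340 to 384 CPM in CON_CON_SAL, so it did not follow S100a8.

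Of the remaining lists, none had a called member in the 3 choices of libraries. Median log2 differences are given with 10 libraries, then without replicate 6, then with CON_CON_LPS replicate 4 also left out. They were 0.10, 0.17 and 0.03 for complement and phagocytic receptors, 0.22, 0.25 and 0.13 for disease-associated microglia, 0.22, 0.20 and 0.09 for the lysosome, and 0.11, 0.18 and 0.10 for the cell cycle. Below 0 in each case were cholesterol genes (-0.08, -0.11 and -0.08), glycolysis (-0.11, -0.01 and -0.22), the unfolded protein response (-0.12, -0.06 and -0.26), C-type lectin and related receptors (-0.22, -0.09 and -0.12) and acute-phase genes (-0.35, -0.18 and -0.44). The sign depended on the libraries for glucocorticoid-responsive genes (-0.10, -0.02 and 0.02) and for immediate early and dissociation stress genes (0.17, 0.15 and -0.16), of which 18 of 26 were above 0 in the first case and 8 of 26 in the last. The stress score of CON_CON_LPS replicate 4 was 4.09, the lowest of the 10 libraries. C1qb, a chain of the complement initiator C1q, ran from 2400 to 4780 CPM in MIA_CON_LPS (median 2740) and stood at 1780, 2830, 1560 and 2780 CPM in CON_CON_LPS (log2 difference 0.43, adjusted p 0.464). Cst3, a secreted inhibitor of cathepsins, ran from 8240 to 11800 CPM in MIA_CON_LPS and stood at 6760, 7780, 3930 and 7830 CPM in CON_CON_LPS, without overlap (log2 difference 0.62, adjusted p 0.386). Ctsl, a lysosomal protease, lay the other way, from 848 to 1610 CPM in MIA_CON_LPS (median 1280) and 1980, 1830, 1470 and 2770 CPM in CON_CON_LPS (log2 difference -0.69, unadjusted p 0.00184, adjusted p 0.386 by edgeR). Tsc22d3, a glucocorticoid-induced leucine zipper gene, ran from 74.5 to 145 CPM in MIA_CON_LPS (median 94.3) and stood at 217, 83.9, 219 and 170 CPM in CON_CON_LPS (adjusted p 0.444). Pfkfb3, which drives glycolysis, reached 2020 CPM in MIA replicate 1 and 2490 CPM in control replicate 1, the highest library of each group.

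Among well-expressed named genes, none of those with the smallest p for a higher level in MIA_CON_LPS passed the adjusted test. These genes, and those on the lower side below, were picked for the smallest p in the same libraries. Separation of their groups is therefore no added evidence, and its share over all genes was not counted. Lgals9, an immune galectin, ran from 130 to 279 CPM in MIA_CON_LPS (median 185) and stood at 88.1, 140, 95.4 and 114 CPM in CON_CON_LPS, a log2 difference of 0.85 ± 0.22 (SE) with an unadjusted p of 0.000416 and an adjusted p of 0.343 by edgeR. Psenen, a subunit of gamma-secretase, stood between 35.5 and 56.7 CPM in MIA_CON_LPS (median 43.1) and at 15.5, 30.2, 17.7 and 32.3 CPM in CON_CON_LPS, with no overlap. Sod1, which removes superoxide, stood between 57.9 and 92.2 CPM in MIA_CON_LPS (median 64.9) and at 35.3, 51.6, 20.7 and 54.9 CPM in CON_CON_LPS, also with no overlap. The Psenen log2 difference was 0.87 (unadjusted edgeR p 0.000656), and 0.75 (p 0.00814) with replicate 6 and control replicate 4 left out. For Sod1 it was 0.77 (unadjusted edgeR p 0.00136), and 0.51 (p 0.0285) with both left out. Ptrhd1 stood between 8.23 and 16.2 CPM in MIA_CON_LPS and at 6.69, 7.27, 5.12 and 4.44 CPM in CON_CON_LPS. Gadd45g, a stress-induced growth arrest gene, ran from 7.7 to 62.5 CPM in MIA_CON_LPS (median 21) and stood at 5.09, 8.67, 5.12 and 9.2 CPM in CON_CON_LPS, where MIA replicate 1 overlapped control. Gnao1, a G protein subunit abundant in neurons, had a log2 difference of 1.88 on 188 counts in MIA_CON_LPS and 52 in CON_CON_LPS. Ier3ip1 (0.59) and Bbip1 (0.68) completed the higher genes. Without replicate 6, Max, the partner of MYC, had a log2 difference of 0.60 (adjusted p 0.142) and Atf4, a transcription factor of the integrated stress response, one of 0.72 (adjusted p 0.218), and for both the 5 MIA libraries then lay above the 4 controls.

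On the lower side, Cep128, a centriole protein, stood between 6.52 and 12.6 CPM in MIA_CON_LPS (median 9.59) and at 16.1, 19.7, 30.2 and 34.9 CPM in CON_CON_LPS, with no overlap and a log2 difference of -1.36 ± 0.30 (SE, adjusted p 0.246 by edgeR). Leo1, part of the PAF1 complex that travels with RNA polymerase II, stood at 31.4, 17.7, 17.9, 12.3, 17.9 and 16.5 CPM in MIA_CON_LPS and at 32.9, 38, 25.8 and 35.8 CPM in CON_CON_LPS. MIA replicate 1 alone overlapped the controls for Leo1, and without that library the gene was called (log2 difference -1.01, adjusted p 0.0132 by edgeR). Leaving out the 1 library that overlapped made a call more likely, so this call is no added evidence. Dcbld2, a transmembrane receptor, stood between 17.4 and 30 CPM in MIA_CON_LPS (median 20.3) and at 38.6, 35.6, 31 and 44.4 CPM in CON_CON_LPS, a log2 difference of -0.77 with replicate 6 and -0.89 without it (adjusted p 0.343 with it and 0.142 without it). Dcbld2 overlaps St3gal6 on the other strand. Wdr55 stood between 3.55 and 9.83 CPM in MIA_CON_LPS and at 15.5, 14.1, 15.9 and 11.7 CPM in CON_CON_LPS. Myo1g, a myosin of blood cells, had a log2 difference of -1.21, and control replicate 5 reached 117 CPM while the other controls lay between 43.6 and 46.8 CPM. The rest were Mthfsl (-1.19), Hdgfl2 (-0.72), Stx6 (-0.84), Lima1 (-0.84) and Atp2b1 (-0.47), and, from the fit without replicate 6, Dcun1d3 (-1.25) and Pgpep1 (-1.26). Mthfsl is annotated as a relative of Mthfs, and reads shared between them could have been split by the authors' estimation.

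The 1 gene called without replicate 6, Gm38091 (ENSMUSG00000103247.1, chromosome 9, 89259525 to 89263395 on the minus strand in GENCODE M21, GRCm38), is annotated as a transcript still to be tested by experiment. It stood at 11.3, 14.3, 18.3, 6.95, 8.74 and 36.2 CPM in MIA_CON_LPS replicates 1 to 6 and at 24.6, 30.7, 41.2 and 33 CPM in CON_CON_LPS. Replicate 6 alone lay among the controls, and the log2 difference was -0.99 (adjusted p 0.35 by edgeR) with it and -1.43 ± 0.25 (SE, adjusted p 0.0179) without it. Gm38091 lies within Mthfs, a folate metabolism gene on the plus strand, and reads of the overlapping genes cannot be told apart. Mthfs itself had a log2 difference of -0.93 with 10 libraries and -1.02 without replicate 6 (adjusted p 0.262).

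Whether the MIA difference after LPS was itself different without PLX and with PLX was tested as an interaction, whose 4 groups share no library. With all libraries 5 of 13420 genes (0.0373%) were called, and without replicate 6 8 of 13356 (0.0599%). AC122252.2, a long noncoding RNA, stood between 18.3 and 31.6 CPM in MIA_CON_LPS (median 22.5) and at 47.4, 52, 50.2 and 121 CPM in CON_CON_LPS, and with PLX between 34 and 138 CPM in MIA_PLX_LPS (median 69.7) and between 15.8 and 46 CPM in CON_PLX_LPS (median 32). MIA was the lower group without PLX and the higher group by median with it, a log2 difference of differences of -2.79 ± 0.47 (SE, adjusted p 0.0152 by edgeR). The MIA_PLX_LPS libraries were split, with replicates 1, 5 and 6 at 100, 138 and 104 CPM. Replicates 2, 3 and 4, at 34, 39.4 and 34.5 CPM, lay inside the CON_PLX_LPS range. Dcbld2 stood between 23.6 and 50.2 CPM in MIA_PLX_LPS (median 30.8) and between 18.9 and 29.5 CPM in CON_PLX_LPS (median 22.4), against the lower MIA values without PLX given above, a difference of -1.34 ± 0.27 (SE, adjusted p 0.0461).

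Gm45220, a transcript of the same annotation class that lies within Picalm, stood between 34.4 and 113 CPM in MIA_CON_LPS (median 65.9) and at 86.8, 185, 137 and 322 CPM in CON_CON_LPS, and with PLX between 87.7 and 294 CPM in MIA_PLX_LPS (median 177) and between 38.1 and 117 CPM in CON_PLX_LPS (median 87.1). Its difference of differences was -2.43 (adjusted p 0.0174), and its reads cannot be told from unspliced reads of Picalm on the same strand. Here too MIA_PLX_LPS replicates 1, 5 and 6 were high (294, 241 and 243 CPM). Replicates 2, 3 and 4 (100, 87.7 and 113 CPM) lay inside the CON_PLX_LPS range. Ppl, the cytolinker periplakin, was low: 0.816 to 2.94 CPM in MIA_CON_LPS (median 1.17), 2.41, 4.69, 2.05 and 3.81 CPM in CON_CON_LPS, 3.1 to 10.2 CPM in MIA_PLX_LPS (median 6.13) and 0 to 2.01 CPM in CON_PLX_LPS (median 1.63), for -3.25 (adjusted p 0.0174). With PLX all MIA libraries lay above all control libraries, and Ppl was also called there on its own (log2 difference 2.25, adjusted p 0.0194). Gpr37l1, an orphan receptor of astrocytes, had 39 counts in MIA_CON_LPS and 3 in CON_CON_LPS, a count ratio of 11 (95% interval 3.51 to 55.9, counting error only), and 4 counts in MIA_PLX_LPS and 36 in CON_PLX_LPS, a ratio of 0.183 (0.0474 to 0.511). The median log2 difference of the 6 tested astrocyte markers went the same way, at 1.10 without PLX (1.24 without replicate 6) and -0.72 with PLX. All 6 were above 0 without PLX, while with PLX 4 were below 0 and 2 above. In either case 0 were called. With PLX the astrocyte list summed to 131 to 203 CPM in MIA_PLX_LPS and 189 to 342 CPM in CON_PLX_LPS. Their part in the Gpr37l1 result was not tested.

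The 3 genes added without replicate 6 were Gm38091 (-1.83, adjusted p 0.0123), Pgpep1, a pyroglutamyl peptidase (-1.90, adjusted p 0.0356), and Gpcpd1, which cleaves glycerophosphocholine (-1.54, adjusted p 0.0387). The count of called genes rested on single libraries: it was 0 without CON_CON_LPS replicate 5, 3 without MIA_CON_LPS replicate 3 and 11 without CON_CON_LPS replicate 1. DESeq2 called 16 genes and voom 0. The corresponding interaction with the saline groups, whether the MIA difference was different after LPS and after saline, called 0 of 13420 genes (0%) with 415 at an unadjusted p under 0.05, and 0 of 13356 (0%) without replicate 6, by edgeR.

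**Figure D5:**
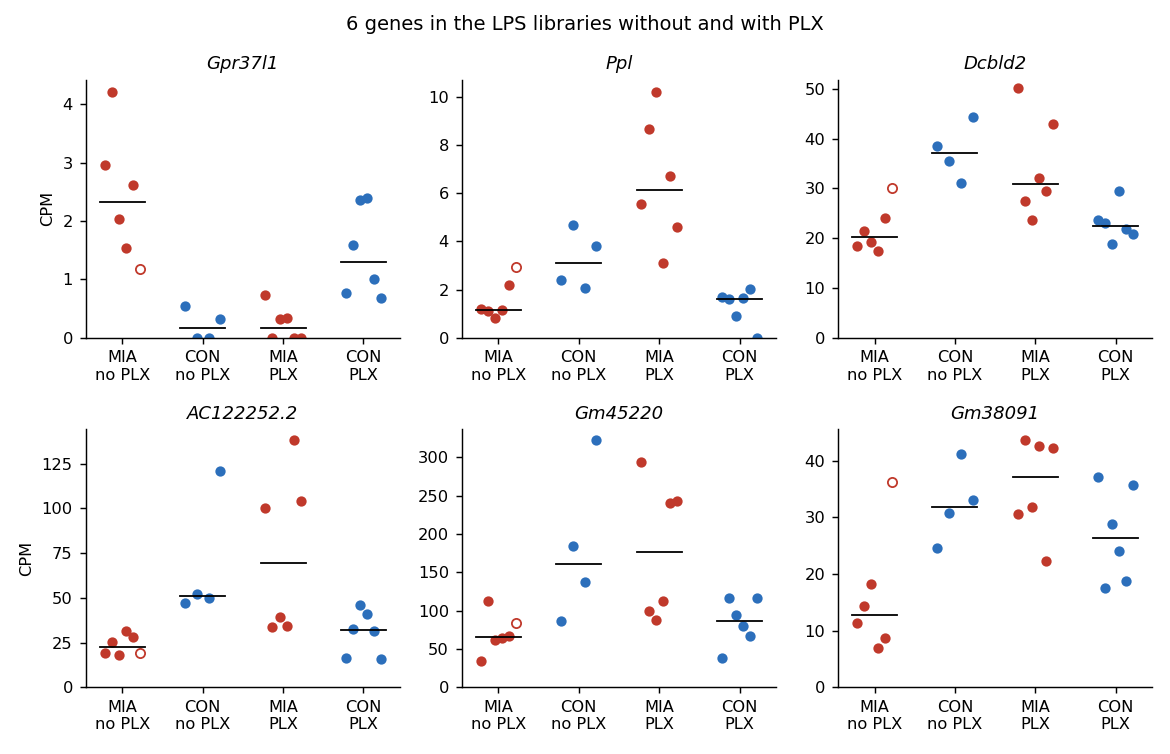
CPM of the 5 genes whose MIA difference after LPS differed without and with PLX, and of Gm38091, in the 4 LPS groups; each point is a library, the line is the group median and the open circle is MIA_CON_LPS replicate 6. For AC122252.2 the medians are 22.5 CPM in MIA and 51.1 in control without PLX, and 69.7 in MIA and 32 in control with PLX, while Ppl reaches at most 10.2 CPM and Gpr37l1 at most 4.21 CPM. The AC122252.2 values in MIA with PLX lie either at 34 to 39.4 CPM or at 100 to 138 CPM.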

How the data were processed

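RNA of sorted microglia was sequenced after linear amplification without removal of ribosomal RNA, with a kit that keeps no strand information, per the labels' protocols. The submitters' processing notes list STAR, RSEM and DESeq2 with no version, and the genome build is not given in the sources used here. The authors deposited 1 table of expected counts, which are estimated counts per gene, for 55487 gene identifiers in 39 libraries; 14.71% of the nonzero values were not whole, and all were rounded.

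Of the identifiers, 54349 matched GENCODE M21 (GRCm38) with their version, and positions come from that annotation. The 37 libraries not marked for exclusion were fitted together, 1 mean for each of 8 groups, with edgeR 4.0.16 (R 4.3.3): TMM scaling, filterByExpr (minimum count 10, minimum total 15), a robust quasi-likelihood fit and Benjamini-Hochberg adjustment over 13420 genes. Log2 CPM used a prior count of 2. Response genes needed an adjusted p under 0.05 and an absolute log2 fold change over 1 in both PLX arms. The model code was tested on simulated data. DESeq2 1.42.0 and limma 3.58.1 were alternatives. Intervals on counts cover counting error only, since the counts of a group were pooled and the spread between libraries was left out. Reads carry no molecular identifiers, so amplified copies count as separate reads and these intervals may be too narrow.

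Genes were named by rule. The 10 smallest p in each direction were taken at a mean log2 CPM of at least 3. Without replicate 6, 6 were taken in each direction. The 2 members with the smallest p in each of 30 lists and a set of 11 microglial and cytokine genes were added. Called interaction genes and genes that share reads with them were added after their values were seen. The members and lists were chosen with earlier results of these data known.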

Additional observations from a re-analysis of the deposited data

Results flagged for a closer look

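Among 250 checks of single libraries against their own group, 13 stood apart from the rest. Chance gives about 1 in 20, so that count was near the chance rate, and the flags below are descriptions only. MIA_CON_LPS replicate 6 was the highest of its group for P2ry12 (10.8 log2 CPM, the others 7.91 to 8.8), Siglech (9.58, the others 7.91 to 8.42) and Cd9, a tetraspanin (7.56, the others 6.57 to 6.84). MIA_CON_LPS replicate 1 was the lowest for the immediate early and dissociation stress score (5.68, the others 6.8 to 7.39) and the highest for Pfkfb3 (11 log2 CPM, the others 8.47 to 9.26). MIA_CON_LPS replicate 2 was the highest for C1qb (12.2 log2 CPM, the others 11.2 to 11.6).

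CON_CON_LPS replicate 4 was the lowest of its group for the NF-kB score (4.22, the others 6.8 to 7.1). CON_CON_LPS replicate 2 was the highest for the MHC class I score (6.56, the others 5.76 to 5.84) and Mcm6, a replication helicase subunit (4.84 log2 CPM, the others 3.86 to 3.92), and the lowest for the glucocorticoid-responsive score (5.63, the others 6.61 to 6.73). CON_CON_LPS replicate 5 was the highest for Myo1g (6.88 log2 CPM, the others 5.47 to 5.57), AC122252.2 (6.93, the others 5.58 to 5.72) and Hbb-bt, a globin (-0.125 log2 CPM, the others -0.737), the last on 1 count.

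The MIA difference after LPS was itself different without PLX and with PLX for 5 genes by the edgeR interaction test, with log2 differences of differences of 5.69 for Gpr37l1, -1.34 for Dcbld2, -3.25 for Ppl, -2.43 for Gm45220 and -2.79 for AC122252.2. The fitted value of Gpr37l1 rests on groups of 3 and 4 counts and depends on the prior count. MIA_PLX_SAL replicate 1, marked for exclusion, had a response index of -0.37, above the other saline libraries of the series at -1.96 to -1.75.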

How the results depend on the processing

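The counts of called genes were 0 higher and 0 lower with edgeR under TMM and RLE scaling, no filter, the replicate block, the marked libraries included and mitochondrial genes removed. DESeq2 called 3 higher and 4 lower, and a fit of the 2 groups alone called 1 lower (Gm49369). Leaving out 1 library gave 0 higher throughout and 0 to 1 lower: Leo1 without MIA_CON_LPS replicate 1 and Gm38091 without replicate 6. The count of genes whose MIA difference differed without and with PLX was 5, against 16 with DESeq2, 0 with voom, 2 without a filter, 2 with the marked libraries, 9 with both MIA_CON_LPS replicate 6 and CON_CON_LPS replicate 4 left out, and 0 to 11 with 1 library left out. The index difference of -0.24 was 0.044 with both left out, 0.41 with the marked CON_CON_LPS replicate 3 included, and -0.43 to 0.11 with 1 library left out. The cause of these shifts was not tested.

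Of 1790 gene and setting pairs over 95 named genes, 1742 kept sign and call, 4 became called and 44 changed sign, in 18 genes that were not called. Log2 differences with the marked libraries included were -0.15 for P2ry12, -0.092 for Siglech, -0.0040 for Trem2, -0.048 for Slc1a2, -0.25 for Hbb-bs, -2.17 for Hbb-bt, -0.19 for Tmem119 and -0.41 for Cx3cr1. With both libraries left out they were -0.0032 for Cd9, -0.044 for Tmem119, -0.50 for Cx3cr1, -0.036 for Ccl2 and 0.057 for Tlr4. Voom gave -0.44 for Cx3cr1 and -0.81 for Ccl2, and no filter gave -0.016 for Cx3cr1. With 1 library left out, values ranged from -0.83 to 0.79 for Ccl2, -0.25 to 3.71 for Cd163, -0.35 to 0.66 for Cx3cr1, -0.43 to 0.68 for Cxcl10, -0.48 to 0.017 for Hk2, -0.28 to 0.26 for Itgam, -1.62 to 0.42 for Nr4a3, -0.40 to 2.07 for Pf4, -0.22 to 0.021 for Ptprc and -0.38 to 0.10 for Tlr4.

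Replicate numbers are not stated to pair samples and were not taken as pairs. Deviations of same-numbered MIA_CON_LPS and CON_CON_LPS libraries had correlations of 0.64, 0.42, 0.04 and -0.09 for numbers 1, 2, 4 and 5. Numbers 1 and 2 correlated best with their own number and 4 and 5 did not. What same-numbered libraries may share was not tested. The replicate block called 0 genes, with 1572 at an unadjusted p under 0.05 against 1252 without it, and gave 0.057 for Itgam, -0.29 for Cx3cr1 and -0.15 for Ccl2. At 1837851 to 4834531 counts a library and a median standard error of 0.31, 56.3% of genes had an interval inside 2-fold. These intervals use the spread shared across 8 groups.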
